A study of Mus musculus with 8 samples.

Results

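The transcripts described here are the nuclear-encoded subunits of complex II, complex III, complex IV and ATP synthase together with cytochrome c. They were taken by gene symbol alone: Sdha, Sdhb, Sdhc, Sdhd, Cyc1 and Cycs, and every symbol that starts with Uqcr, Cox4 to Cox8 or Atp5. The rule found 49 of the 24630 genes in the table, 4 of complex II, 9 of complex III, 1 for cytochrome c, 18 of complex IV and 17 of ATP synthase. The respiratory chain of mitochondria passes electrons to oxygen and stores the energy as a proton gradient, which ATP synthase spends to make ATP. Succinate dehydrogenase (complex II) feeds electrons from the citric acid cycle into ubiquinone, the cytochrome bc1 complex (complex III) hands them on to cytochrome c, and cytochrome c oxidase (complex IV) reduces oxygen. Most subunits are encoded in the nucleus, and the mitochondrial genome supplies a small core of complexes III, IV and ATP synthase but none of complex II. Quiescent muscle stem cells, the resting precursors of muscle fibres, hold few mitochondria, and their oxidative metabolism increases on activation.

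RNA of muscle stem cells was sequenced from 4 old male C57BL/6 mice aged 22 months and 4 young male C57BL/6 mice aged 4 months, 1 animal per library. The labels name no transgene and no treatment in either group. Cells of limb muscles were sorted without culture as CD45-, CD31- and Sca1- but VCAM+, so both groups are a sorted population that a gate defined, not a lineage mark. The libraries came from oligo(dT)-primed SMARTer cDNA, which does not mark the strand.

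The libraries of the 2 ages differed in depth and scaling, which touches every comparison below. The old libraries held 20.1 to 24.9 M reads in genes (M, the SI prefix mega) and the young libraries 1.91 to 6.56 M. Depth here means these reads in genes, and depth and age cannot be told apart. The submitters stated the same range of sequenced reads for every library, with a lower end above all of these counts. By that range, a smaller part of the sequenced reads was counted in genes in young libraries than in old ones. The cause was not tested. Values are RPKM, that is, reads in a gene divided by its length in kilobases and by the library size in M. The deposited RPKM rest on library sizes of 0.678 to 0.849 times the reads in genes in old libraries and 1.14 to 1.64 times in young libraries, and the 5703 tested genes had a median log2 fold change of 0.64 on that scale. Levels below are therefore RPKM of library totals, that is, computed on each library's own reads in genes, where that median was -0.0071. The tested genes are those with a mean deposited RPKM of at least 5, and the median depends on that limit. With a limit of 1 it was -0.19, with 10 it was 0.062 and with no limit -0.35, all on library totals. A change on library totals concerns the share of reads a gene takes. Of the marker lists, the muscle stem cell genes summed to 2673 to 3463 RPKM in old libraries and 2874 to 3743 RPKM in young libraries, and 1 of the 9 was called higher in old and 4 lower. Pax7, the defining transcription factor of these cells, stood at 8.22 to 13.4 RPKM in old and 14.7 to 22.6 RPKM in young. Tenocyte genes summed to 514 to 1571 RPKM in old libraries and 196 to 303 RPKM in young libraries, and all 5 tested genes of the 6 on that list were called higher in old. The defining tendon factor Scx stood at no more than 0.395 RPKM in old libraries and 0.806 RPKM in young ones. Muscle fibre genes, 15 in number, summed to 67.1 to 431 RPKM in old and 189 to 415 RPKM in young libraries, with 0 called higher and 1 lower of 7 tested. Fibro-adipogenic genes summed to 521 to 1198 RPKM in old and 502 to 733 RPKM in young libraries, with 2 called higher and 1 lower of 5 tested. Most of that sum was Dcn (476 to 1067 RPKM in old, 392 to 524 RPKM in young), while Col1a1 stood at 7.64 to 43.0 RPKM in old and 49.1 to 92.6 RPKM in young libraries. Pericyte genes summed to 255 to 457 RPKM in old and 403 to 474 RPKM in young libraries. Endothelial genes summed to 28.95 to 61.96 RPKM in old libraries and 65.92 to 70.35 RPKM in young libraries. Every old sum thus lay below every young one, with 0 called of 3 tested. Leukocyte genes summed to 18.6 to 44.0 RPKM in old and 21.5 to 60.9 RPKM in young libraries. For erythroid genes the sums were 19.7 to 94.4 RPKM in old and 27.5 to 61.8 RPKM in young libraries. Ptprc, which encodes CD45, reached 0.332 RPKM in old libraries and 2.94 RPKM in young libraries. A set of 1414 olfactory and vomeronasal receptor genes, silent in muscle, took 0.00615% to 0.0144% of reads in old libraries and 0.079% to 0.387% in young libraries. The part of the other cell types and of these background reads in the results below was not tested.

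Of the 49 genes, 40 had a mean deposited RPKM of at least 5 and entered the test, a limma-trend fit of log2(RPKM + 1) over all 5703 genes with p-values adjusted by Benjamini-Hochberg and called under 0.05. The complexes were expressed in old and young stem cells alike, and their transcripts showed few changes of mRNA share with age. Cytochrome c (Cycs) rose, 4 subunits fell (Uqcr11 of complex III, Cox7a2l of complex IV, and Atp5c1 and Atp5g2 of ATP synthase), and 35 did not pass the test. Among all tested genes 12.3% were called higher and 12.5% lower. The 1 of 40 called higher lies below that background, and the 4 of 40 called lower lie near it. Over the 40, the median log2 fold change was -0.10 (range -0.68 to 0.54) on library totals, with 13 positive and 27 negative, beside -0.0071 over all genes tested, of which 49.3% were positive. On the deposited scale the median of the 40 was 0.56 against 0.64 for all tested genes, with 30 of the 40 called higher where 68.1% of all tested genes were, and 0 called lower (0 also by the unadjusted p under 0.05). The 35 subunits that did not pass had 95% intervals of the log2 fold change between -0.68 and 0.84, within 2-fold for all 35 and within 1.5-fold for 28. In these bulk libraries, fewer cells of a type and less RNA per cell cannot be told apart.

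Several of these genes are textbook targets of the nuclear respiratory factors NRF1 and GABP (an ETS factor), of the oestrogen-related receptors (ERR) and of YY1. Start site windows of 300 bases, 250 before to 50 after the start (RefSeq, GRCm38.p6), were found for 37 of the 49 genes and searched on both strands for 4 motifs. The NRF1 motif GCGCANGCG occurred in 13 of 37 (35.1%), beside 17.1% of 4468 tested genes and 7.03% of all 27025 genes with a window. The ETS motif ACCGGAAG occurred in 4 (10.8%, beside 6.27% of tested and 2.6% of all genes), and the ERR motif AAGGTCA in 5 (13.5%, beside 3.29% of tested and 5.38% of all genes). The YY1 motif AAGATGGCG occurred in 2 (5.41%, beside 4.68% of tested and 1.64% of all genes). The 37 include genes that were not tested, among them Atp5k and Atp5l, which hold both the NRF1 and the ERR letters. The shares of the 37 and of the tested genes are therefore not of fully like sets. A match is a description of letters, not of binding.

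The windows of the 5 called genes are shown, and that of Sdhd as the only one that matched 3 of the motifs. A link between these letters and the changes with age was not tested. Among the called genes, those that hold the NRF1 letters include both Cycs, which rose, and Uqcr11, Atp5c1 and Atp5g2, which fell. Each runs 5′ to 3′ on the minus strand, from 120 bases before to 30 after the start, with matches in capitals. They lie at chr6:50566540-50566689 (Cycs), chr2:10080403-10080552 (Atp5c1), chr10:80406792-80406941 (Uqcr11), chr15:102671018-102671167 (Atp5g2), chr17:83514304-83514453 (Cox7a2l) and chr9:50603820-50603969 (Sdhd).
Cycs: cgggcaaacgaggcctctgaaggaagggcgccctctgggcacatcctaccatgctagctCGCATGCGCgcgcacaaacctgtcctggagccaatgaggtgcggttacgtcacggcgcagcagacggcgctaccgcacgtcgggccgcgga
Uqcr11: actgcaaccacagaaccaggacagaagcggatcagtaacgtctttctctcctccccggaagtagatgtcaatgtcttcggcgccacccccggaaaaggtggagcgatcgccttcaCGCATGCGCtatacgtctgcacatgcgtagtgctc
Cox7a2l: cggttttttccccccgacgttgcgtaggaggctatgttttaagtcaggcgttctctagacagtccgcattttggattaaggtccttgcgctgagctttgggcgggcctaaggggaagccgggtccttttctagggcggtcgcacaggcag
Atp5c1: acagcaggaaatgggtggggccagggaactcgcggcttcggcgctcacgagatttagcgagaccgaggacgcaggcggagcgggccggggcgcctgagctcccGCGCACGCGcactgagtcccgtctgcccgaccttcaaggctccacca
Atp5g2: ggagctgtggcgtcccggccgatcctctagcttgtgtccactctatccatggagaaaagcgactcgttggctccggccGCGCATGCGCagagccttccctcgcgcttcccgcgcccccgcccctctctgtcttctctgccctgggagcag
Sdhd: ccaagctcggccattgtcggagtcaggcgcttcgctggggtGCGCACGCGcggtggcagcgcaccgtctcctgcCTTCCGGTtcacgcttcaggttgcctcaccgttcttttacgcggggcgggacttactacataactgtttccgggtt
The NRF1 letters began 61 bases before the start in Cycs, 5 in Uqcr11 and 17 in Atp5c1. In Atp5g2 they matched both strands at neighbouring positions, 42 and 41 bases before the start. For Atp5c1 the second of 2 annotated starts is shown, since the first held no match. Cox7a2l held none of the 4 motifs in its window. In Sdhd the NRF1 and ETS letters lie 79 and 46 bases before the start, and its ERR letters at position 36 fall outside the printed bases. The matches of different motifs did not overlap in the printed bases.

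**Figure D1:**
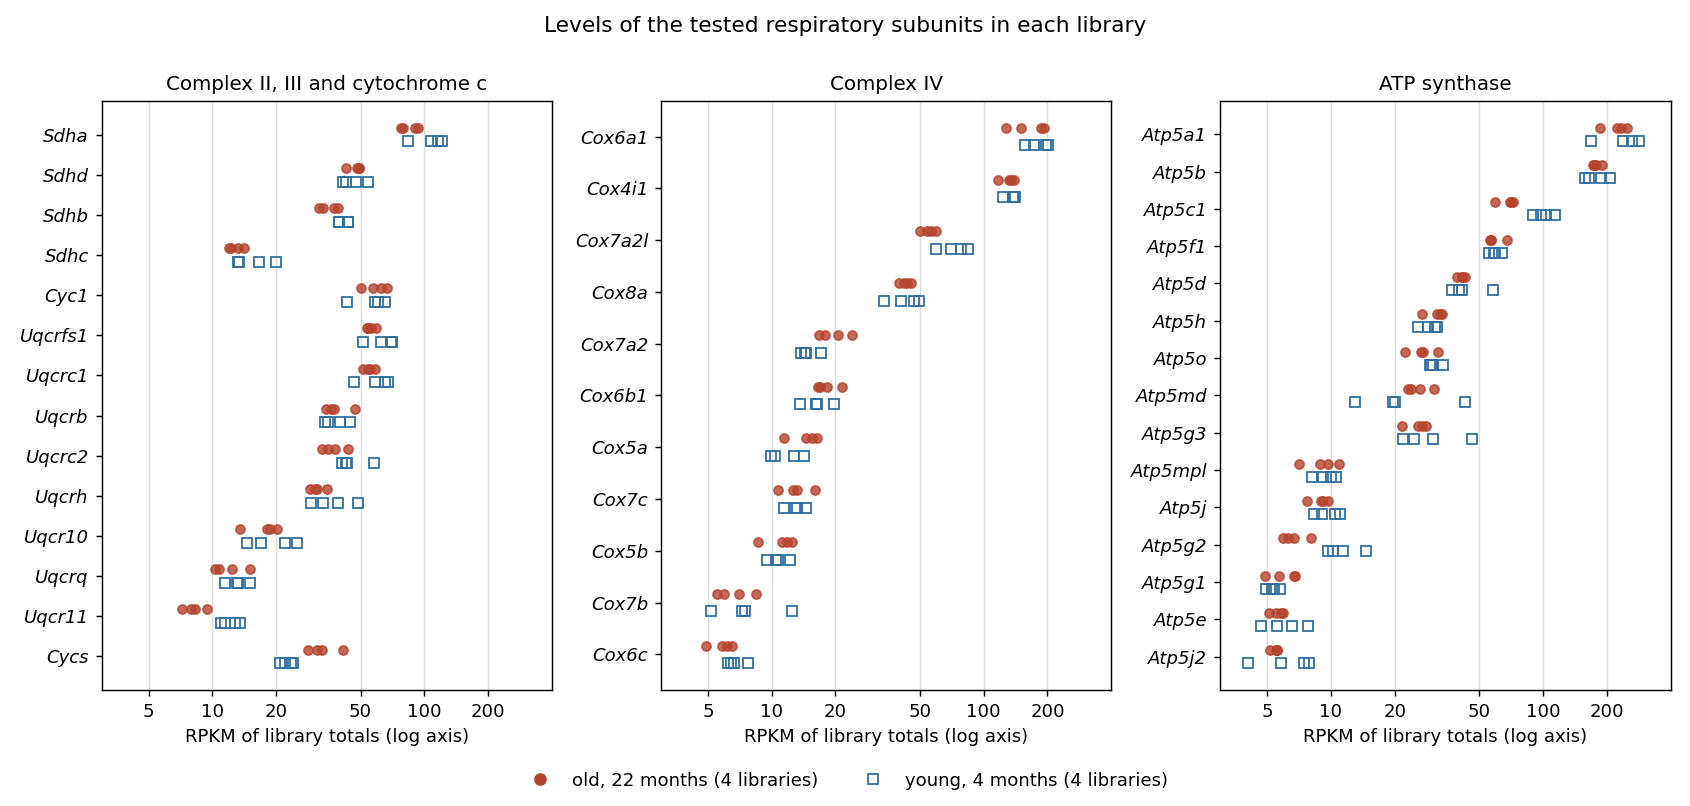
RPKM of library totals (log axis) of the 40 tested subunits in each of 4 old libraries (filled circles) and 4 young libraries (open squares), by complex. Atp5a1, Atp5b, Cox6a1 and Cox4i1 lie above 100 RPKM in all 8 libraries, and most genes overlap between the ages.

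All 4 complex II subunits were expressed, and none passed the test, by limma-trend or by limma-voom on recovered reads (Sdha alone had an unadjusted limma p under 0.05). On the deposited scale Sdhd alone was called higher. Sdha, the flavoprotein that oxidises succinate, was the highest, at 77.2, 90.1, 93.0 and 79.3 RPKM in old libraries 1 to 4 and 107, 83.6, 122 and 116 RPKM in young libraries 1 to 4. Its log2 fold change was -0.32 ± 0.14 (SE, adjusted p = 0.11, limma) on library totals (deposited scale, 0.37). Young library 2 was the only young library inside the old range, and without it the library-total value was -0.44 with an adjusted p of 0.0198. Sdhb, the iron-sulphur subunit, stood at 33.3, 37.6, 31.8 and 39.2 RPKM in old libraries and 43.6, 39.5, 43.7 and 39.5 RPKM in young libraries. All 4 old libraries lay below all 4 young ones, by a margin of less than 1 RPKM, and the log2 fold change of -0.23 ± 0.11 did not pass (adjusted p = 0.161, limma; 0.45 on the deposited scale). Such separation, all 4 old below all 4 young, occurred in 13.3% of all tested genes and all 4 old above all 4 young in 13.8%, beside 5 and 1 of the 40 subunits.

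The membrane anchor of complex II, which holds its haem and the ubiquinone site, consists of Sdhc and Sdhd. Sdhc had 11.9, 13.2, 12.2 and 14.1 RPKM in old libraries and 13.4, 13.2, 16.5 and 19.9 RPKM in young libraries, overlapping between the ages (-0.26 ± 0.14, adjusted p = 0.201, limma; 0.39 on the deposited scale). Sdhd had 42.9, 49.4, 48.1 and 49.1 RPKM in old libraries and 41.3, 42.9, 47.6 and 54.4 RPKM in young libraries, and the old values lay inside the young range (0.031 ± 0.12, adjusted p = 0.873, limma). Over the 4 subunits the median log2 fold change was -0.24 on library totals (deposited scale, 0.42). The summed complex II level was 165, 190.4, 185 and 182 RPKM in old libraries and 205, 179, 229 and 230.2 RPKM in young libraries. Young library 2 lay within the old range and the other 3 young libraries above it.

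Complex III had 9 subunits, all tested, of which Uqcr11 fell and 8 did not pass. Uqcr11, a small supernumerary subunit, had 8.32, 9.41, 7.23 and 7.95 RPKM in old libraries and 12.7, 11.4, 13.6 and 10.97 RPKM in young libraries. The groups did not overlap, with means of 8.23 ± 0.911 RPKM in old libraries and 12.2 ± 1.19 RPKM in young libraries (SD, n = 4 each). The log2 fold change was -0.51 ± 0.12 (adjusted p = 0.0117, limma) on library totals; on the deposited scale it had the opposite sign, 0.12 (adjusted p = 0.593, limma). The call held with each library left out in turn (highest adjusted p 0.0405) but not with all libraries thinned to the shallowest (-0.43, adjusted p 0.0859) or without young libraries 1 and 2, where the fold change of -0.52 stayed as large (adjusted p 0.054).

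The catalytic core of complex III includes Uqcrfs1, the Rieske iron-sulphur protein, which was at 55.8, 54.2, 53.4 and 59.4 RPKM in old libraries and 51.2, 70.2, 69.6 and 62.1 RPKM in young libraries. The old values clustered within 6 RPKM of each other inside the wider young range. Cyc1, the haem-bearing cytochrome c1 that reduces cytochrome c, had the highest log2 fold change of the complex, 0.062 ± 0.15 (adjusted p = 0.784, limma). Its levels were 50.4, 62.7, 57.1 and 66.8 RPKM in old libraries and 58.8, 43.4, 65.4 and 60.6 RPKM in young libraries, with overlap. The 2 core proteins Uqcrc1 and Uqcrc2 averaged 54.9 ± 3.05 and 37.5 ± 4.72 RPKM in old libraries and 59.4 ± 9.36 and 46.1 ± 8.0 RPKM in young libraries (SD, n = 4 each), and neither passed the test. The other small subunits Uqcrb, Uqcrq, Uqcrh and Uqcr10 had log2 fold changes between -0.23 and 0.011 on library totals. Over the 9 the median was -0.13, and 0.52 on the deposited scale, where 6 were called higher. Summed complex III levels were 289.6, 341, 305 and 326 RPKM in old libraries and 325, 341, 353 and 368 RPKM in young libraries, and the ranges overlap.

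Cycs, the soluble carrier between complexes III and IV that also triggers caspase activation when released into the cytosol, was the only one of the 40 called higher on library totals. Its start window holds the NRF1 letters printed above. It had 28.1, 41.3, 31.2 and 33.1 RPKM in old libraries and 23.4, 20.9, 21.9 and 23.9 RPKM in young libraries. Each old library lay above each young one, with means of 33.4 ± 5.65 RPKM in old libraries and 22.5 ± 1.39 RPKM in young libraries (SD, n = 4 each), and old library 2 was the highest. Cycs rose 1.48-fold, a log2 fold change of 0.54 ± 0.13 (adjusted p = 0.0129, limma), and 1.21 (adjusted p = 0.000109) on the deposited scale. The call held with each library left out (highest adjusted p 0.0356) and after thinning (0.0106), but not without young libraries 1 and 2, where the log2 fold change was still 0.51 with a larger error of 0.17 (adjusted p 0.0649).

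**Figure D2:**
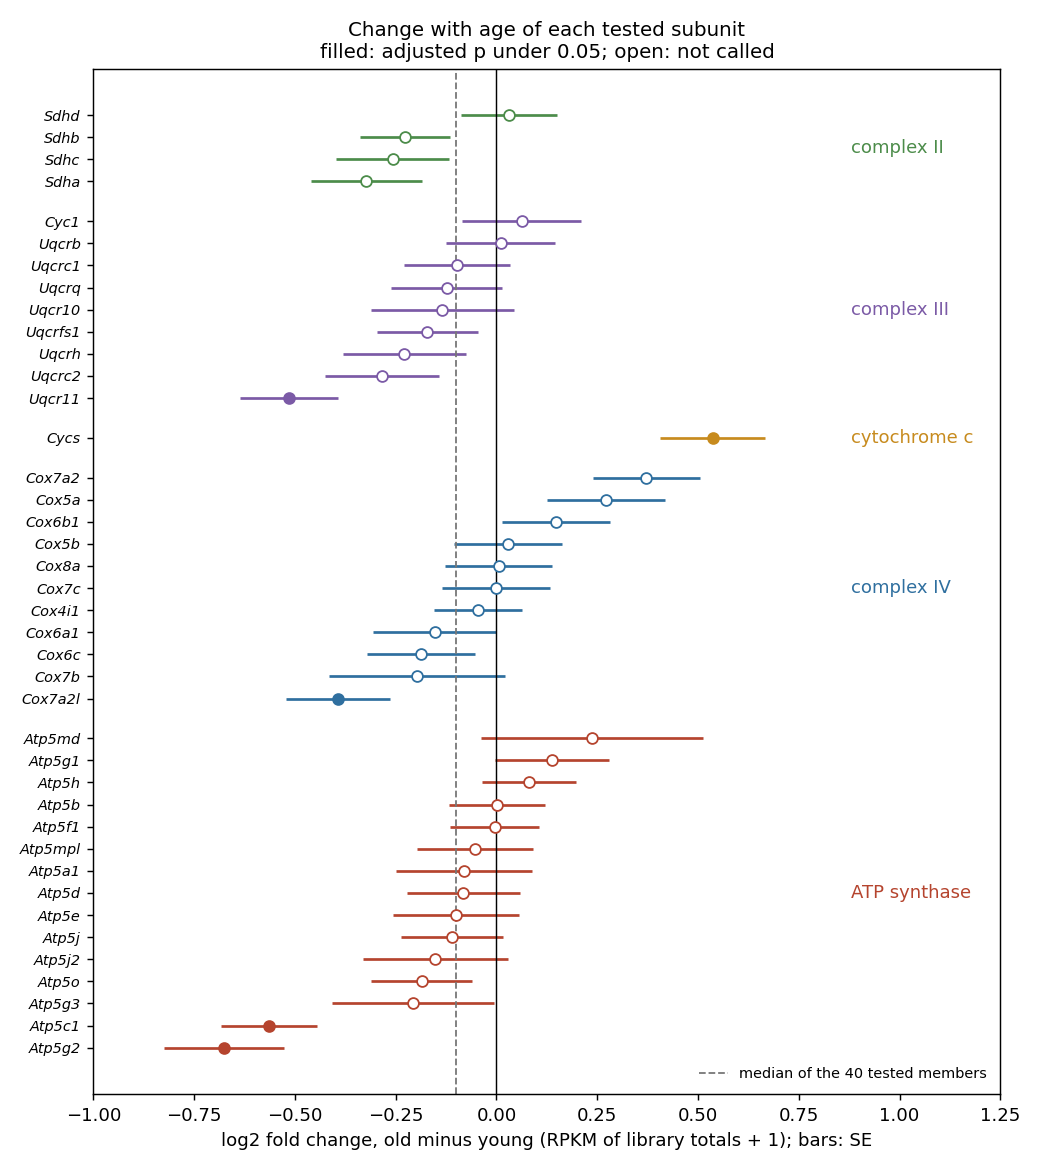
Log2 fold change, old minus young, on library totals for each of the 40 tested subunits, ordered within complex, with bars for the SE. Filled points passed an adjusted p of 0.05, open points did not, and the dashed line marks the median of -0.10.

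Of the 18 complex IV genes 11 were tested, and Cox7a2l fell while 10 did not pass. Cox7a2l, a Cox7a paralogue, is known as a factor for joining complexes III and IV into supercomplexes. Whether its protein does so in the mouse strain used here was not tested. Cox7a2l had 50.3, 53.9, 59.6 and 56.7 RPKM in old libraries and 69.9, 59.7, 84.6 and 78.4 RPKM in young libraries. The highest old library, number 3, lay just below the lowest young library, number 2. Means were 55.1 ± 3.94 RPKM in old libraries and 73.2 ± 10.8 RPKM in young libraries (SD, n = 4 each), a log2 fold change of -0.39 ± 0.13 (adjusted p = 0.0461, limma) on library totals; on the deposited scale it had the opposite sign, 0.29 (adjusted p = 0.26, limma). With 1 library left out, the call held only without young library 2, and the adjusted p reached 0.127 without young library 3. It was also lost after thinning (0.0647).

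Cox6a1, a regulatory subunit in its ubiquitous form, had the highest RPKM of complex IV, with 186, 194, 128 and 150.5 RPKM in old libraries and 156, 196, 173 and 201 RPKM in young libraries. The old range was wider than the young one and overlapped it (-0.15 ± 0.15, adjusted p = 0.491, limma). That rank rests on merged exons as gene length, 1.23 times the principal transcript for Cox6a1 and 2.08 times for Cox4i1. Cox4i1 had more reads than Cox6a1 in every library. Merged exons exceed the principal transcript by over 2 times for 20 of the 49 genes. Cox4i1, the ubiquitous form of the subunit through which ATP inhibits the enzyme, had 117, 139.8, 135 and 132 RPKM in old libraries and 141, 123, 138 and 139 RPKM in young libraries, with overlap (-0.046 ± 0.11, adjusted p = 0.788, limma). Cox7a2, the form of Cox7a found in most tissues, had the highest log2 fold change of the complex. It stood at 17.8, 23.9, 16.7 and 20.7 RPKM in old libraries and 13.8, 17.2, 14.4 and 14.5 RPKM in young libraries, where only young library 2 reached into the old range. Its value of 0.37 ± 0.13 did not pass (adjusted p = 0.062, limma), and passed on leaving out old library 3 or young library 2 (0.0435 and 0.0349). Cox6b1, Cox7b and Cox8a, each the widely expressed form of its subunit, also overlapped between the ages. Cox6b1 had 16.96, 21.5, 16.5 and 18.2 RPKM in old libraries and 13.6, 16.2, 16.4 and 19.6 RPKM in young libraries (0.15 ± 0.13, adjusted p = 0.443, limma). Cox7b had 5.95, 7.02, 5.51 and 8.43 RPKM in old libraries and 5.20, 12.5, 7.29 and 7.53 RPKM in young libraries, with young library 2 apart from the rest (-0.20 ± 0.22, adjusted p = 0.54, limma). Cox8a had 42.0, 45.4, 39.9 and 43.4 RPKM in old libraries and 34.0, 47.0, 49.8 and 40.6 RPKM in young libraries (0.0053 ± 0.13, adjusted p = 0.981, limma). The other 4 tested genes, Cox5a, Cox5b, Cox6c and Cox7c, had log2 fold changes from -0.19 to 0.27. Over the 11 tested genes the median was -0.0012, and 0.64 on the deposited scale, where 9 were called higher.

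The 7 complex IV genes that were not tested are all tissue forms or paralogues of a subunit, expressed in heart and muscle fibre (Cox6a2, Cox7a1, Cox8b), lung (Cox4i2) or testis (Cox6b2, Cox7b2, Cox8c) in mammals. Their levels rest on few reads. Cox4i2 had 4.30, 1.58, 1.66 and 1.28 RPKM in old libraries, from 68, 31, 30 and 21 reads, and 2.35, 9.29, 3.29 and 3.35 RPKM in young libraries, from 5, 14, 17 and 15 reads. Old library 1 and young library 2 stood apart from their groups. The fibre forms were scarce: Cox6a2 had 1.61, 0.0592, 0.514 and 0.565 RPKM in old libraries and 1.64, 0.769, 0.449 and 0.517 RPKM in young libraries, from 1 to 22 reads each. Cox7a1 had 0.652, 0.376, 1.39 and 0.898 RPKM in old libraries and 1.39, 1.96, 1.43 and 1.31 RPKM in young libraries. Cox8b had 1.66, 0.447, 0.243 and 0.667 RPKM in old libraries and 0, 0, 0.424 and 1.46 RPKM in young libraries, with 0 reads in young libraries 1 and 2. A count of 3 reads, the limit that a count of 0 allows, is worth 3.09 and 4.36 RPKM for Cox8b in young libraries 1 and 2, more than any old library showed, so a difference was not detectable at this depth. These limits cover counting error only, since amplified reads are not independent molecules.

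Among the testis forms, Cox7b2 had 0, 0.0742, 0 and 0.532 RPKM in old libraries, from 0, 1, 0 and 6 reads, and 10.3, 3.86, 2.53 and 2.59 RPKM in young libraries, from 15, 4, 9 and 8 reads. Every young library lay above every old one, although the young libraries held fewer reads in all. How often other genes at such low levels separate in this way was not counted. With no filter on low values, 8166 of all 24630 genes were called lower in old and 873 higher. Cox8c had 0, 1, 0 and 1 reads in old libraries and 3, 1, 2 and 6 reads in young libraries, or 0, 0.0845, 0 and 0.101 RPKM in old and 2.34, 1.10, 0.641 and 2.21 RPKM in young. Cox6b2 had 0.899, 0.508, 0.868 and 0.737 RPKM in old libraries and 0.335, 2.36, 1.93 and 1.11 RPKM in young libraries, with young library 1 below all old ones. The silent receptor genes, as given above, also took a larger share of reads in every young library than in any old one. The part of such background reads in these low values was not tested.

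Expressed as a share of its isoform family in each library, Cox4i2 made up 3.55, 1.12, 1.22 and 0.959% of Cox4 RPKM in old libraries and 1.64, 7.03, 2.34 and 2.35% in young libraries. Cox7a1 made up 3.53, 1.55, 7.69 and 4.17% of Cox7a RPKM in old libraries and 9.16, 10.2, 9.02 and 8.30% in young libraries, so that every young share was above every old one on 2 to 17 reads. Cox6a1, Cox6b1, Cox7a2 and Cox8a supplied at least 87.3% of their families in all 8 libraries, and Cox4i1 at least 93%. The widely expressed forms thus carried nearly all of the complex IV isoform signal at both ages, apart from the Cox7b family. There Cox7b2 made up 0, 1.05, 0 and 5.93% in old libraries and 66.4, 23.6, 25.8 and 25.6% in young libraries, on the reads given above. Shares within a library do not depend on the scaling between libraries. They can depend on background reads, of which the silent receptor genes took more in every young library than in any old one. The part of such reads in the Cox7a1 and Cox7b2 shares was not tested.

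**Figure D3:**
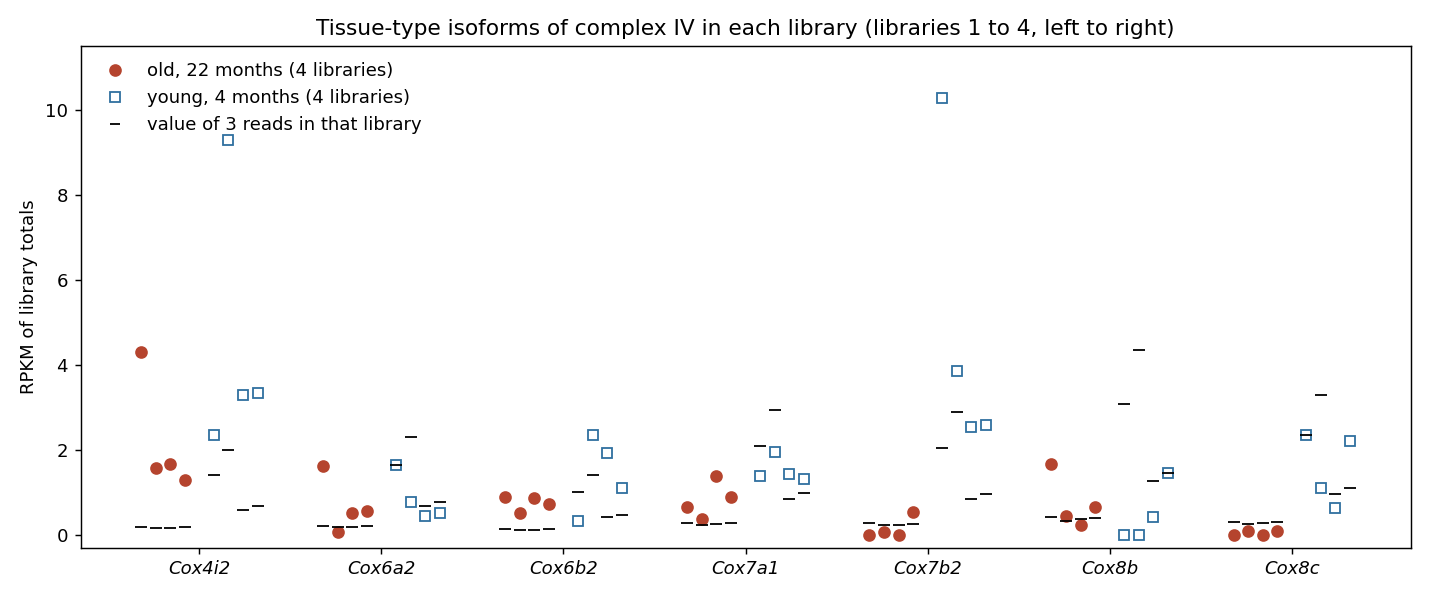
RPKM of library totals of the 7 tissue-form genes of complex IV in old libraries 1 to 4 (filled circles) and young libraries 1 to 4 (open squares), with dashes at the value of 3 reads in that library. Cox4i2 and Cox7b2 lie above 3 reads in all 4 young libraries, and Cox7b2 is at 0 in old libraries 1 and 3.

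ATP synthase had 17 genes, 15 of them tested, of which Atp5c1 and Atp5g2 fell and 13 did not pass. The F1 head makes ATP as the central stalk turns within it. Its alpha and beta subunits had, together with Cox6a1, the highest RPKM of the whole set. Atp5a1, the alpha subunit, had 186, 249.7, 234 and 223 RPKM in old libraries and 239.5, 169, 264 and 284 RPKM in young libraries (-0.081 ± 0.17, adjusted p = 0.756, limma). Atp5b, the catalytic beta subunit, averaged 179 ± 7.68 RPKM in old libraries and 179.8 ± 22.8 RPKM in young libraries (SD, n = 4 each), with a log2 fold change of 0.00060 ± 0.12. Neither alpha nor beta separated the ages, and the old values lay inside the young range for both. Atp5c1, the gamma subunit that forms the rotating shaft inside the head and another gene with the NRF1 letters, had 70.7, 72.0, 70.0 and 59.2 RPKM in old libraries and 89.9, 97.6, 103 and 114 RPKM in young libraries. All 4 old libraries were below all 4 young ones, and means were 68.0 ± 5.90 RPKM in old libraries and 101 ± 10.2 RPKM in young libraries (SD, n = 4 each). Atp5c1 fell, with a log2 fold change of -0.56 ± 0.12 (adjusted p = 0.00706, limma) on library totals; on the deposited scale it had the opposite sign, 0.12 (adjusted p = 0.631, limma). The call held with each library left out (highest adjusted p 0.0256), after thinning (0.0128) and without young libraries 1 and 2 (0.0173). The 2 smaller central stalk subunits, delta (Atp5d) and epsilon (Atp5e), had log2 fold changes of -0.082 and -0.10 on library totals (deposited scale, 0.60 and 0.49).

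The peripheral stalk, which keeps the head from turning, consists of the products of Atp5f1, Atp5h, Atp5j and Atp5o, and none passed the test (0 also by the unadjusted limma p under 0.05 and by limma-voom). Their log2 fold changes were -0.0041, 0.081, -0.11 and -0.19 on library totals, a median of -0.057, and their levels ran from 7.74 to 67.8 RPKM in old libraries and 8.30 to 64.0 RPKM in young libraries. Atp5j shares exon sequence on the opposite strand with Gabpa, and Atp5f1 with Wdr77, and reads of such neighbours cannot be told apart without strand. Uqcrc2 (with Pdzd9), Cox4i1 (Emc8), Cox6a2 (Itgad), Cox6c (Vps13b), Atp5a1 (Haus1), Atp5d (Cbarp) and Atp5md (Taf5) also share exon bases with a named gene of the opposite strand. Atp5g2 shares exon bases with Mir688 on its own strand. In the membrane part, 3 genes encode the same c subunit of the rotor ring as precursors with different import sequences. Atp5g3 was the highest, with 25.7, 28.1, 21.7 and 27.0 RPKM in old libraries and 21.9, 46.3, 24.8 and 30.3 RPKM in young libraries (-0.21 ± 0.20, adjusted p = 0.477, limma). Atp5g2 had 8.03, 6.72, 6.29 and 5.97 RPKM in old libraries and 10.2, 14.7, 11.4 and 9.65 RPKM in young libraries, without overlap. Atp5g1 had 4.88, 6.796, 5.69 and 6.69 RPKM in old libraries and 5.29, 5.75, 4.94 and 5.40 RPKM in young libraries, with overlap (0.14 ± 0.14, adjusted p = 0.506, limma).

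Atp5g2 fell, to a mean of 6.75 ± 0.907 RPKM in old libraries against 11.48 ± 2.25 RPKM in young libraries (SD, n = 4 each). Its log2 fold change of -0.68 ± 0.15 (adjusted p = 0.00857, limma) was the lowest of the 40, and it was -0.052 (adjusted p = 0.795) on the deposited scale. Atp5g2 was also the only one of the 40 at a negative value there. The call held with each library left out (highest adjusted p 0.0277) but not after thinning, at a log2 fold change of -0.48 (adjusted p 0.121). Within the c subunit family Atp5g2 made up 20.8, 16.2, 18.7 and 15.1% of RPKM in old libraries and 27.2, 22.0, 27.7 and 21.3% in young libraries, so all 4 old shares lay below all 4 young ones. Atp5g3 supplied 66.5, 67.5, 64.4 and 68.1% in old libraries and 58.6, 69.4, 60.3 and 66.8% in young libraries, the main form in all 8. Atp5g1 supplied 12.6, 16.3, 16.9 and 16.9% in old libraries and 14.1, 8.62, 12 and 11.9% in young libraries, where old library 1 lay inside the young range. The counts of these families rest on lengths and mapping that differ between members: Atp5g1 and Atp5g2 have 1 and 2 annotated copies elsewhere in the genome at 95% identity or more over at least 50% of the transcript. Copies within that limit were also found for Atp5l (9), Uqcrb (3), Atp5h (3), Atp5md (2), Cox7c (1), Atp5o (1) and Atp5k (1). The merged exons of Atp5g1 are 8.24 times the length of its principal transcript.

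Of the remaining membrane subunits, Atp5md, a small stabilising subunit, had the highest log2 fold change of ATP synthase, 0.24 ± 0.28 (adjusted p = 0.558, limma). It had 23.1, 30.7, 24.0 and 26.2 RPKM in old libraries and 13.1, 42.9, 20.1 and 19.6 RPKM in young libraries, and without young library 2, the highest of all 8, the value was 0.55 (adjusted p 0.0311). Atp5j2 and Atp5mpl had -0.15 and -0.053. Atp5k and Atp5l, which help ATP synthase dimers form, were below the limit for testing. Atp5k had 1.54, 2.87, 1.70 and 1.95 RPKM in old libraries and 2.41, 1.70, 2.48 and 2.00 RPKM in young libraries. Atp5l had 3.63, 2.78, 3.02 and 3.44 RPKM in old libraries and 5.59, 8.04, 2.49 and 3.52 RPKM in young libraries. Its merged exons are 11.8 times the length of its principal transcript and enter its RPKM as the length. Over the 15 tested genes the median log2 fold change was -0.082, and 0.57 on the deposited scale, where 13 were called higher. Summed ATP synthase levels were 676, 791, 721 and 721 RPKM in old libraries and 738, 733, 830.3 and 875 RPKM in young libraries, with overlap.

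**Figure D4:**
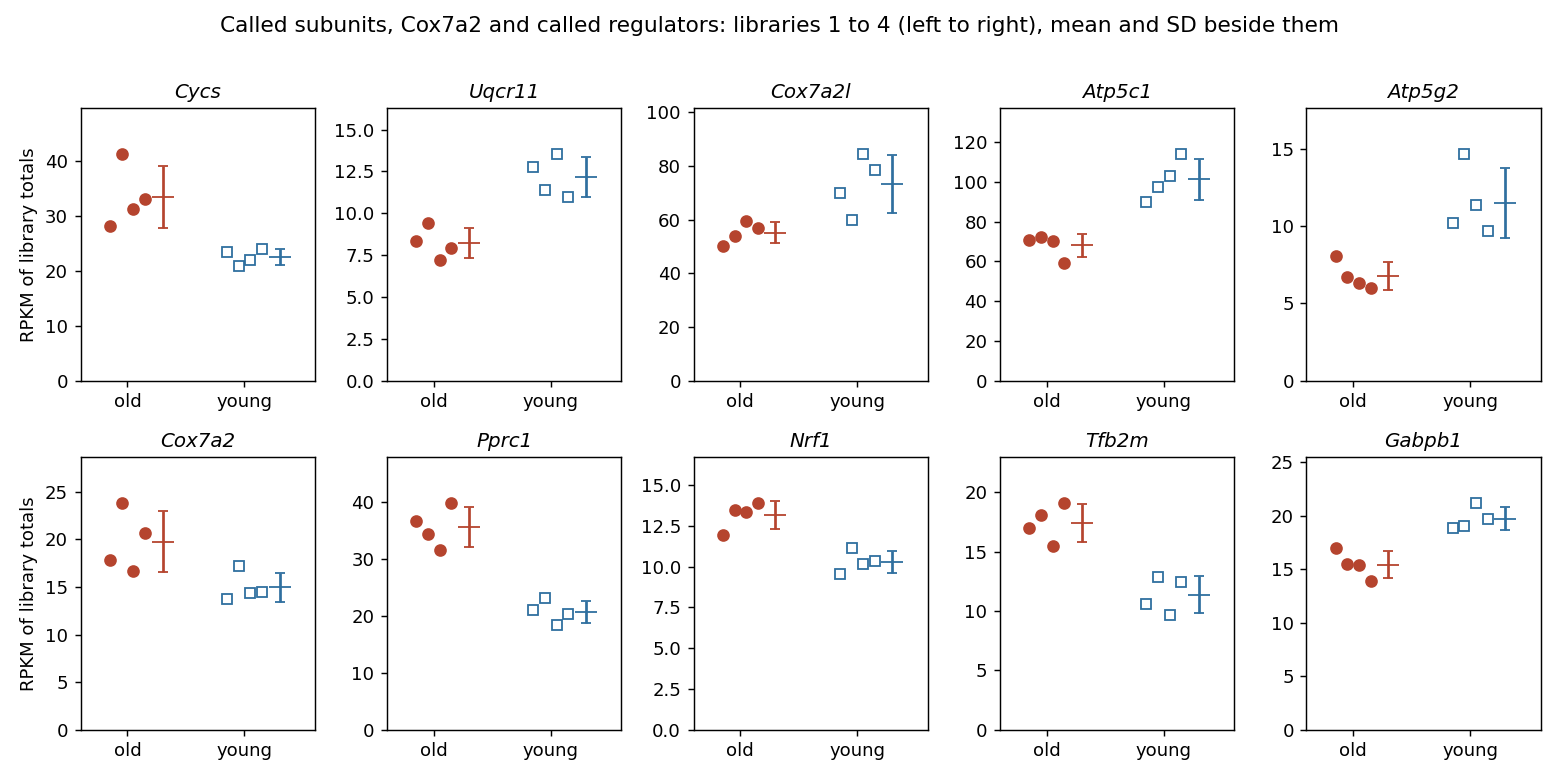
RPKM of library totals in old libraries 1 to 4 (filled circles, left) and young libraries 1 to 4 (open squares, right) for the 5 called subunits, for Cox7a2, which did not pass, and for the 4 called regulators, with mean and SD beside them. Cycs, Pprc1, Nrf1 and Tfb2m are higher in all 4 old libraries than in any young one, while Uqcr11, Cox7a2l, Atp5c1, Atp5g2 and Gabpb1 are lower in all 4; on the deposited scale Uqcr11, Cox7a2l, Atp5c1 and Gabpb1 had the opposite sign.

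Summed over the 49 genes, the subunits took 0.367, 0.427, 0.389 and 0.393% of reads in genes in old libraries and 0.410, 0.383, 0.448 and 0.467% in young libraries. Old and young shares overlapped. Summed complex IV levels were 492, 535, 442 and 483 RPKM in old libraries and 493, 535, 537 and 554 RPKM in young libraries, with old library 3 the lowest of the 8. Between animals, the subunits varied by a median coefficient of variation of 11.3% in old libraries and 13.4% in young libraries, beside 14.1% in old and 15.4% in young libraries over all tested genes. Young library 2, the shallowest, held the highest value of the 8 libraries for 10 of the 40 subunits and the lowest for 7. The log2 fold changes of all genes also shifted with level. Among genes with a mean deposited RPKM of 5 to 10, the 8 subunits had a median of -0.13 and all 1937 genes one of -0.14. At 10 to 20 on that measure, the 9 subunits had a median of -0.0012 and all 1555 genes one of -0.014. At 20 to 50, the 12 subunits had a median of -0.0385 and all 1243 genes one of 0.0819. Among genes at 50 to 100, the 7 subunits had a median of -0.17 and all 498 genes one of 0.14. At 100 and above, the 4 subunits had a median of -0.063 and all 470 genes one of 0.15. The subunits are short, with a median gene length of 1715.5 bases against 3762 bases over all tested genes. The 1054 tested genes of at most 2000 bases had a median log2 fold change of -0.0013.

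**Figure D5:**
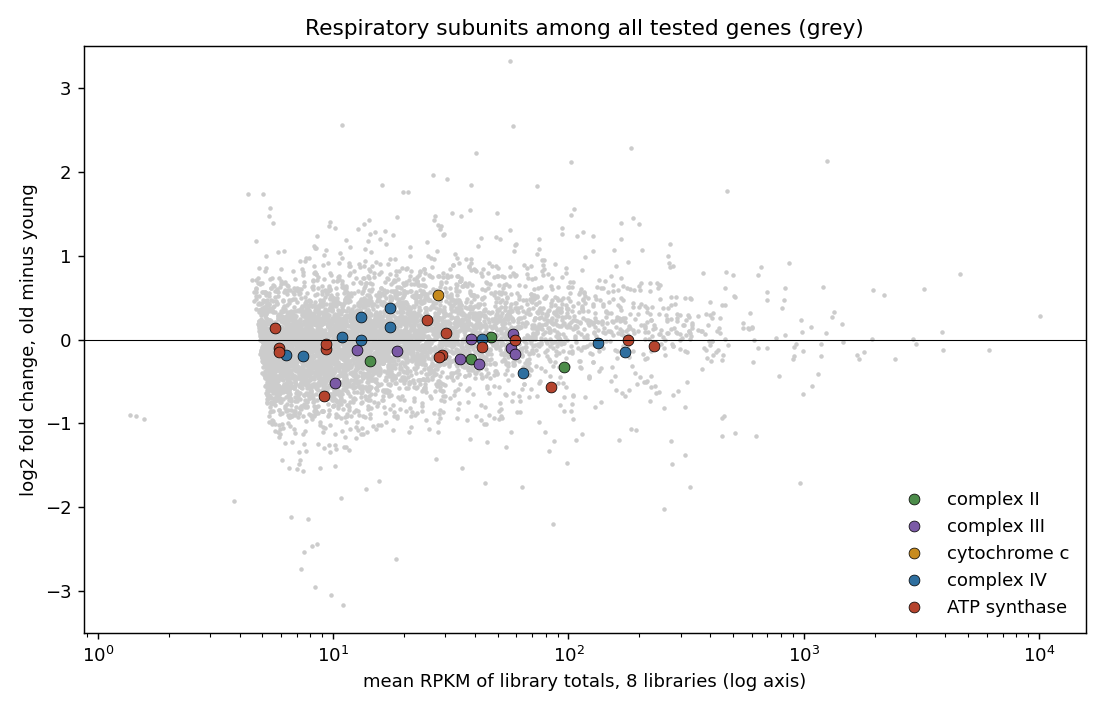
Log2 fold change, old minus young, on library totals against the mean RPKM of the 8 libraries (log axis) for all 5703 tested genes (grey) and the 40 subunits (coloured by complex). The subunits lie between -0.68 and 0.54, while single genes of the whole table reach -3.17 and 3.32.

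The regulators and partners of the chain were read in the same fit, 67 genes of which 24 were tested. Of these, 3 were called higher and 3 lower, beside 12.3% and 12.5% of all tested genes. All 3 called higher, and 1 called lower, were among the 8 tested of 18 transcriptional regulators of respiratory genes. The median log2 fold change of those 8 was 0.33 on library totals (deposited scale, 0.94). Regulators below the limit for testing do not enter that median. Of them, Ppargc1a, Ppargc1b, Gabpb2, Esrra, Esrrb, Tfb1m, Polrmt and Mterf2 had lower means in old libraries on library totals, and Esrrg and Mterf1a higher ones. Pprc1, a coactivator of the PGC-1 family that works with NRF1, had 36.7, 34.4, 31.6 and 39.9 RPKM in old libraries and 21.04, 23.1, 18.4 and 20.4 RPKM in young libraries, with no overlap. Its log2 fold change was 0.75 ± 0.12 (adjusted p = 0.00197, limma), and 1.42 on the deposited scale. Tfb2m, a transcription initiation factor of the mitochondrial genome, had 17.04, 18.1, 15.4 and 19.1 RPKM in old libraries and 10.6, 12.9, 9.63 and 12.5 RPKM in young libraries (0.58 ± 0.12, adjusted p = 0.00785, limma). Pprc1 and Tfb2m were called in every alternative that was run. Nrf1 had 11.96, 13.5, 13.4 and 13.9 RPKM in old libraries and 9.53, 11.1, 10.2 and 10.4 RPKM in young libraries, again without overlap. It rose by a log2 fold change of 0.33 ± 0.11 (adjusted p = 0.0447, limma). Of the 8 fits with 1 library left out, the Nrf1 call held only without old library 1 and without young library 2, and the adjusted p reached 0.127 without young library 1. The Nrf1 call was also lost after thinning (0.25, adjusted p 0.164), without young libraries 1 and 2 (0.33, adjusted p 0.117), with the replicate block (adjusted p 0.0715), with the GC content trend removed (adjusted p 0.053) and with a filter of at least 10 RPKM.

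Gabpb1, the partner that carries the activation domain of the ETS factor GABP, fell on library totals, with 16.96, 15.5, 15.4 and 13.9 RPKM in old libraries and 18.9, 19.0, 21.2 and 19.7 RPKM in young libraries (-0.34 ± 0.11, adjusted p = 0.0389, limma; 0.32, of opposite sign, on the deposited scale). With 1 library left out its call, too, held only without old library 1 and without young library 2, and the highest adjusted p was 0.103 without old library 4. The Gabpb1 call was also lost after thinning (-0.24, adjusted p 0.183), without young libraries 1 and 2 (-0.39, adjusted p 0.0768), with the replicate block (adjusted p 0.0728) and with centring on the median gene (adjusted p 0.0603). Gabpa, the subunit that binds DNA, had 16.3 ± 1.74 RPKM in old libraries and 16.4 ± 1.56 RPKM in young libraries (SD, n = 4 each; -0.0094 ± 0.12). Tfam, which packs the mitochondrial genome and starts its transcription, had 24.2, 27.4, 20.6 and 25.4 RPKM in old libraries and 14.1, 24.6, 17.2 and 22.2 RPKM in young libraries, with overlap (0.33 ± 0.17, adjusted p = 0.177, limma). Ppargc1a, which encodes PGC-1 alpha, was below the limit for testing at 1.33, 0.958, 0.822 and 0.889 RPKM in old libraries and 1.75, 4.76, 1.13 and 2.13 RPKM in young libraries. Esrra, the oestrogen-related receptor alpha, was not tested either. It had 0.196, 0.095, 0.327 and 0.511 RPKM in old libraries and 0.585, 1.44, 0.661 and 0.415 RPKM in young libraries. These values rest on 10, 6, 19 and 27 reads in old libraries and 4, 7, 11 and 6 reads in the shallower young libraries.

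Of 6 subunit genes of the mitochondrial genome that were listed, 2 were tested, and neither passed the test on library totals. CYTB of complex III had 4032, 4616, 2546 and 3721 RPKM in old libraries and 3485, 4846, 2865 and 5220 RPKM in young libraries (-0.13 ± 0.23, adjusted p = 0.704, limma; deposited scale, 0.57, adjusted p = 0.0568). COX1 of complex IV had 3048, 3411, 1976 and 3088 RPKM in old libraries and 2431, 3262, 1947 and 4789 RPKM in young libraries (-0.055 ± 0.26, adjusted p = 0.899, limma); on the deposited scale it was called higher, at 0.64 (adjusted p = 0.0475, limma). The other 4 mitochondrial genes listed, COX2, COX3, ATP6 and ATP8, had 0 to 19 reads per library, which cannot be read as levels beside CYTB and COX1. Of the assembly factors, 1 of 4 for complex II and 2 of 6 for complex III were tested and 0 called (0 also by the unadjusted limma p under 0.05 and by limma-voom). Of 27 genes for assembly or association of complex IV, 8 were tested, with a median of -0.26 on library totals (deposited scale, 0.38). Coa3, which binds newly made COX1, fell to 7.03 ± 1.01 RPKM in old libraries against 11.1 ± 1.11 RPKM in young libraries (SD, n = 4 each; -0.59 ± 0.13, adjusted p = 0.0089, limma; 0.032, of opposite sign, on the deposited scale). Of 6 genes for ATP synthase 3 were tested, and Tmem242, an assembly factor of its membrane part, fell to 5.54 ± 1.19 RPKM in old libraries against 8.40 ± 1.31 RPKM in young libraries (SD, n = 4 each; -0.53 ± 0.16, adjusted p = 0.0347, limma; 0.075, of opposite sign, on the deposited scale). The Coa3 call was lost without young libraries 1 and 2, at a log2 fold change of -0.49 (adjusted p 0.0644). With 1 library left out, the Tmem242 call held only without old library 3 and without young library 4, and it was also lost after thinning (-0.66, adjusted p 0.0946) and without young libraries 1 and 2 (-0.50, adjusted p 0.132).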

How the data were processed

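Messenger RNA of sorted muscle stem cells was measured in 4 old and 4 young libraries, and the authors deposited 1 table of 24630 genes in RPKM. Per the submitters' processing notes, Trim Galore, STAR, featureCounts, Subread and edgeR were used with the builds mm10 and GRCm38. Their versions and settings: not given in the sources used here. Reads per gene were recovered from the RPKM steps (100% of genes whole within 0.001) and gave library totals; 80.3% of 23461 genes with reads matched GENCODE M21 merged exon lengths. Spike-in RNA is not analysed here.

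RPKM were rescaled to library totals and fitted as log2(RPKM + 1) by limma-trend, old minus young without covariates (limma version 3.58.1 in R version 4.3.3), for 5703 genes with a mean deposited RPKM of at least 5, with Benjamini-Hochberg adjustment at 0.05. "Rose" and "fell" name genes past that test. Fold changes on this scale understate those of low genes. Limma-voom on recovered reads called 692 genes higher and 743 lower. On simulated reads of 5703 genes, with 50 changed at each size, 4% were recovered at 1.25-fold, 40% at 1.5-fold, 72% at 2-fold and 98% at 3-fold, and 3 unchanged genes were called. A smaller part of the genes changed there than the 24.8% called in the data, which makes the adjusted threshold stricter. Counting noise was also added to a spread that already held it. The recovered shares may therefore be too low for these libraries. Genes given with every library were, per complex, those highest in level, highest and lowest in log2 fold change, called, in an isoform family or in complex II, with Cyc1 and Cycs, and in companion lists up to 4 called genes and 5 regulators. The rule for the members reads gene symbols alone, but these gene groups and the lists were chosen with earlier results of these data known. Alternatives covered scaling, pseudocount, filter, model, thinning, gene length, GC content, the replicate number and left-out libraries. In 98 rows a symbol is repeated, and 9 of the 49 genes have a copy at 95% identity or more elsewhere in the genome, including Atp5g2 among those called; copies over less than 50% of a transcript were not counted.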

Additional observations from a re-analysis of the deposited data

Results flagged for a closer look

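Each value below is the highest or lowest of its 4 libraries and stands apart from the other 3 by more than Dixon's 95% limit. Of 88 groups of 4 libraries checked, 4 were so marked, and chance marks about 1 in 20 groups. Atp5c1, the gamma subunit of ATP synthase, was at 59.24 RPKM of library totals in old library 4, below 70.0 to 72.1 RPKM in the other 3 old libraries. Without that library the Atp5c1 adjusted p was 0.0256 (limma). Uqcrc2, a core protein of complex III, was at 57.98 RPKM in young library 4, above 40.7 to 43.0 RPKM in the other 3 young libraries. Atp5f1 of the peripheral stalk was at 67.75 RPKM in old library 2, above 56.0 to 57.0 RPKM in the other old libraries. Atp5j2 of the membrane part was at 5.156 RPKM in old library 3, below 5.48 to 5.55 RPKM in the other old libraries.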

How the results depend on the processing

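The deposited scale moved most results. On it 30 of the 40 subunits were called higher (1 of complex II, 6 of III, cytochrome c, 9 of IV and 13 of ATP synthase) and 0 lower, so that the 1 lower call in complex III, 1 in IV and 2 in ATP synthase were lost, with 3882 of all tested genes called higher and 64 lower, and 14 companion genes higher and 0 lower. Among genes called on at least 1 of the 2 scales, log2 fold changes that were negative on library totals and positive there were, in complex III, 0.59 for Uqcrc1, 0.51 for Uqcrfs1, 0.52 for Uqcrq, 0.53 for Uqcr10 and 0.12 for Uqcr11. In complex IV they were 0.64 for Cox4i1, 0.54 for Cox6a1, 0.41 for Cox6c, 0.29 for Cox7a2l and 0.64 for Cox7c. In ATP synthase they were 0.61 for Atp5a1, 0.12 for Atp5c1, 0.60 for Atp5d, 0.49 for Atp5e, 0.49 for Atp5o, 0.68 for Atp5f1, 0.52 for Atp5j, 0.44 for Atp5j2, 0.47 for Atp5g3 and 0.57 for Atp5mpl. Among companions they were 0.64 for COX1, 0.55 for Cox11, 0.032 for Coa3, 0.075 for Tmem242, 0.49 for Atpif1, 0.64 for Gabpa and 0.32 for Gabpb1. Here the change follows from the library sizes used.

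No called subunit or companion gene changed sign under any other alternative run. With the reads thinned to the shallowest library, 1 subunit was called lower (Atp5c1; 0 in complexes III and IV, 1 in ATP synthase) and 1 companion gene. Without young libraries 1 and 2, 0 subunits were called higher (cytochrome c 0), 1 of complex II and 0 of complex III lower, 0 companions lower, and 453 of all tested genes higher. With a filter of at least 1 RPKM, 2 complex IV genes, 8 companions and 2280 of all genes were called lower, and with no filter 3, 12 and 8166. With at least 10 RPKM, 1 ATP synthase gene, 1 companion and 384 of all genes were called lower. With no filter or with the gene length trend removed, 2 subunits were called higher, 1 of them in complex IV (Cox7a2). Centring on the median gene, or limma without the trend, left 0 lower in complex IV. The causes of these changes were not tested, beyond fewer or more genes and reads by construction. Removing a GC content trend, an alternative chosen after seeing the data, left the counts of subunits unchanged at 1 higher and 4 lower.

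With 1 library left out, 1 to 3 subunits were called higher and 3 to 5 lower, 475 to 795 of all tested genes higher and 476 to 802 lower, and 2 to 4 companions higher and 1 to 2 lower. By complex these were 0 to 1 lower in complex II, 0 to 1 higher and 0 to 1 lower in complex IV, and 0 to 1 higher in ATP synthase, with the third higher subunit (Atp5md) and the lower one of complex II (Sdha) called without young library 2. The replicate numbers did not pair the samples: same-numbered libraries deviated with correlations of -0.16, -0.063, 0.38 and -0.23, and only number 3 matched its own number best. With the replicate block 2 subunits were called higher (1 in complex IV, Cox7a2) and 4 lower. Depth limits the young libraries, where 3 reads in 1 kb were worth 0.458 to 1.57 RPKM, against 0.121 to 0.149 RPKM in old libraries. Changes under 2-fold were often missed in simulated data, whose settings may overstate such misses.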
